A study of Mus musculus with 2931 samples.

Results

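Gpihbp1, Plvap, Kit, Aplnr and Apln were followed across single endothelial cells (EC) of the mouse lung. They were taken by symbol from the count table, and 5 of 5 were found among its 18072 genes. The first 4 are markers of the general capillary cell and Apln is a marker of the other capillary cell of the lung, so the set holds both the ligand and the receptor of the apelin axis. The table covered 2931 sorted cells of distal lung from 10 mice, 1 female and 1 male in each of 5 groups: embryonic stage E18.5, then postnatal days 1, 7 and 21 (P1, P7, P21), all kept in normal air, plus a P7 group exposed to hyperoxia, meaning air rich in oxygen. The labels named no strain, allele, oxygen level or start of exposure, so nothing more can be said of the groups than age, sex and treatment. The labels also gave each cell 1 of 10 subtype names, which were used as they stand.

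Pulmonary capillaries are lined by a pair of interleaved endothelial cell types. General capillary cells renew themselves and supply the other type, while the large, thin Car4+ cells, often called aerocytes, lie against the alveolar epithelium where gas is exchanged. GPIHBP1 is the protein that holds lipoprotein lipase on the capillary wall. PLVAP forms the diaphragms of caveolae and fenestrae, KIT is the receptor tyrosine kinase for stem cell factor, and APLNR is the G protein-coupled receptor that the secreted peptide apelin, made from the Apln gene, activates.

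On the GRCm38 annotation, Gpihbp1 (ENSMUSG00000022579.10) lies at chr15:75596628-75599481 on the plus strand and Plvap (ENSMUSG00000034845.6) at chr8:71497765-71511752 on the minus strand. Kit (ENSMUSG00000005672.12) lies at chr5:75574916-75656722 and Aplnr (ENSMUSG00000044338.9), a gene of 1 exon, at chr2:85136225-85139923, both on the plus strand. Apln (ENSMUSG00000037010.7) lies on the minus strand at chrX:48025146-48034853 and has 3 exons, of which 2 carry coding sequence.

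The coding sequence of Apln is shown because the ligand carries most of the results below. Its 231 bases encode a precursor of 77 residues, and the capitals mark the 39 bases before the stop codon that encode the 13 residues of apelin-13, the short active form cut from the end of the precursor.

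Apln coding sequence, GRCm38 chrX:48028302-48034505, minus strand: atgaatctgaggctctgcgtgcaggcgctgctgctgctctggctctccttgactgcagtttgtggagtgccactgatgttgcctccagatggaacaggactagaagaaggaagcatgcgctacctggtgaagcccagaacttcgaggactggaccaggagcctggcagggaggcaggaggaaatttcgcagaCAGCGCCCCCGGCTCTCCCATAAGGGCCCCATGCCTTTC

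RefSeq promoter sequences on GRCm38.p6 matched 2 of the 5 genes, Apln and Kit, whose levels ran in opposite directions between the capillary types. The bases upstream of the start are shown with capitals for any match, on either strand, to the short cores that hypoxia-inducible, ETS, KLF and GATA factors are known to recognise.

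Apln, chrX:48034854-48035103, minus strand: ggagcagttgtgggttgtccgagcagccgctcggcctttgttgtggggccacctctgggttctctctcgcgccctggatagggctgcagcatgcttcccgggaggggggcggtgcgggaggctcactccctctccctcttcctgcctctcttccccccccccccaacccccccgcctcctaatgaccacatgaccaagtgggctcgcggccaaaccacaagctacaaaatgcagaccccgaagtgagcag

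Kit, chr5:75574737-75574915, plus strand: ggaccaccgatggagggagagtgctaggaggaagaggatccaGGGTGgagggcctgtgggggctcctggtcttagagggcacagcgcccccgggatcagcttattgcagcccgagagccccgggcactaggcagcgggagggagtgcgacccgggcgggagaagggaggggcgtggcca

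The Apln window of 250 bases held none of the 4 motifs. Of 32851 promoter windows of that length, 16.6% held the hypoxia response core, spelled ACGTG. The ETS core was spelled CCGGAA and was in 12% of them. The KLF core was spelled CACCC and was in 52%. The GATA core was spelled AGATAA and was in 9.99%. The Kit window of 179 bases, shortened where the annotated gene begins, held 1 match to the KLF core, on the minus strand, and 40.6% of windows of that length held this motif. These are letter matches in short windows and say nothing of binding.

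Values below are CPM, the standard scaling of a gene's reads to the summed reads of all cells of a mouse and label. The mouse was the replicate. Cells were sequenced to between 42095 and 2967985 reads, with a median of 621406. The male P7 mouse was the shallowest, with a median of 188609.5 reads per cell, against 928377 in the female P7 mouse, 540669 in the female hyperoxia mouse and 765660.5 in the male hyperoxia mouse. A mouse entered a level with at least 8 cells of the label. The subtype names may rest on these same genes and cells, so differences between labels are described without a test. Summed over 6 genes each, endothelial markers reached 8164 to 12420 CPM in the Car4- capillaries of the 9 mice, mesenchymal markers 0 to 46.5 CPM, and mast cell markers, which matter because mast cells also carry KIT, 0 to 0.0807 CPM.

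Apln and the other 4 genes divided the capillaries between them. In Car4+ capillaries Apln averaged 593 ± 203 CPM (SD, n = 8 mice), its highest level of all labels, and lowest to highest the mice ran from 384.5 to 948.8 CPM. Early Car4- capillaries, the main capillary label at P1 and P7, had 137 ± 134 CPM of Apln (n = 6). Late Car4- capillaries, the main label of P21, had 27.9 ± 30.8 CPM (n = 5). The Late mean gives mice of other ages the same weight as the P21 mice, here and for the other genes. The Car4+ mice and the Car4- mice did not overlap. Between the Early and Late labels lay proliferative EC with 81.6 ± 75.6 CPM (n = 8) and venous EC with 40.7 ± 56.3 CPM (n = 9). Nonproliferative embryonic EC had 26.7 ± 6.22 CPM (n = 2), while arterial EC I, with 4.94 ± 8.77 CPM (n = 7), and lymphatic EC, with 2.73 ± 5.39 CPM (n = 4), were near 0. From Early Car4- capillaries down to embryonic EC, neighbours in the order of the means overlapped. The Early, proliferative and venous means include the hyperoxia mice, which the Late and embryonic means lack. Without those mice Early Car4- capillaries had 57.6 CPM, proliferative EC 44.65 CPM and venous EC 13.65 CPM. Venous EC then lay below the Late and embryonic means.

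Aplnr, the receptor, had its highest mean in venous EC. They led with 837 ± 620 CPM (n = 9), ranging from 273.6 to 2038 CPM, followed by nonproliferative embryonic EC with 417 ± 85.3 CPM (n = 2), Late Car4- capillaries with 365 ± 127 CPM (n = 5) and Early Car4- capillaries with 360 ± 209 CPM (n = 6). These neighbours overlapped. Car4+ capillaries held 15.4 ± 16.9 CPM (n = 8). In lymphatic EC 3 of the 4 mice had no Aplnr read and the mean was 0.0338 CPM, and 1.22% of 82 lymphatic cells had a read once each cell was thinned to 50000 reads. After the same thinning 91.0% of 201 venous cells had a read.

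Gpihbp1 was highest in Late Car4- capillaries, at 3502 ± 1820 CPM (n = 5), then in Early Car4- capillaries, at 2051 ± 672 CPM (n = 6). The highest of the Late values, 6564 CPM, came from 12 cells of the female E18.5 mouse, and the other 4 mice ran from 1875 to 3602 CPM. Car4+ capillaries held 273 ± 60.6 CPM (n = 8), the lowest of its capillary means, and 39.5% of their 332 cells had a read. Arterial EC I held 859 ± 517 CPM (n = 7), venous EC 474 ± 356 CPM (n = 9) and lymphatic EC 410 ± 55.8 CPM (n = 4).

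Kit followed Gpihbp1 at a lower level. Late Car4- capillaries had 673 ± 373 CPM (n = 5), Early Car4- capillaries 435 ± 193 CPM (n = 6), proliferative EC 272 ± 171 CPM (n = 8) and nonproliferative embryonic EC 221 ± 8.84 CPM (n = 2), each within the spread of its neighbours. Venous EC held 58.1 ± 40.8 CPM (n = 9), Car4+ capillaries 11.7 ± 12.3 CPM (n = 8) and lymphatic EC 5.05 ± 4.04 CPM (n = 4). A read of Kit was found in 82.7% of 837 Early Car4- cells, 6.93% of 332 Car4+ cells and 9.76% of 82 lymphatic cells. Lymphatic cells did not lack every member, since 73.2% of them had a read of Gpihbp1 and 82.9% a read of Plvap.

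Plvap was not confined to capillaries. Arterial EC I led with 2131 ± 1180 CPM (n = 7), then venous EC with 1883 ± 673 CPM (n = 9), Early Car4- capillaries with 1474 ± 537 CPM (n = 6) and Late Car4- capillaries with 1248 ± 957 CPM (n = 5), all overlapping. Without the hyperoxia mice venous EC led with 1803 CPM and arterial EC I had 1626 CPM. Pooled over all cells of a label, Late Car4- capillaries had 2138 CPM, arterial EC I 2102 CPM, venous EC 1771 CPM and Early Car4- capillaries 1481 CPM. Lymphatic EC held 408 ± 324 CPM (n = 4), and Car4+ capillaries had the lowest mean, 59.4 ± 60.0 CPM (n = 8). Levels per kilobase of merged exon allow a rough comparison of genes, since the transcripts expressed and the annotation used for counting are not known. On that scale Early Car4- capillaries held 803 CPM per kb of Gpihbp1, 742 of Plvap, 97.4 of Aplnr, 48.8 of Kit and 43.6 of Apln. Car4+ capillaries held 188 CPM per kb of Apln, 107 of Gpihbp1, 29.9 of Plvap, 4.16 of Aplnr and 1.31 of Kit.

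**Figure D1:**
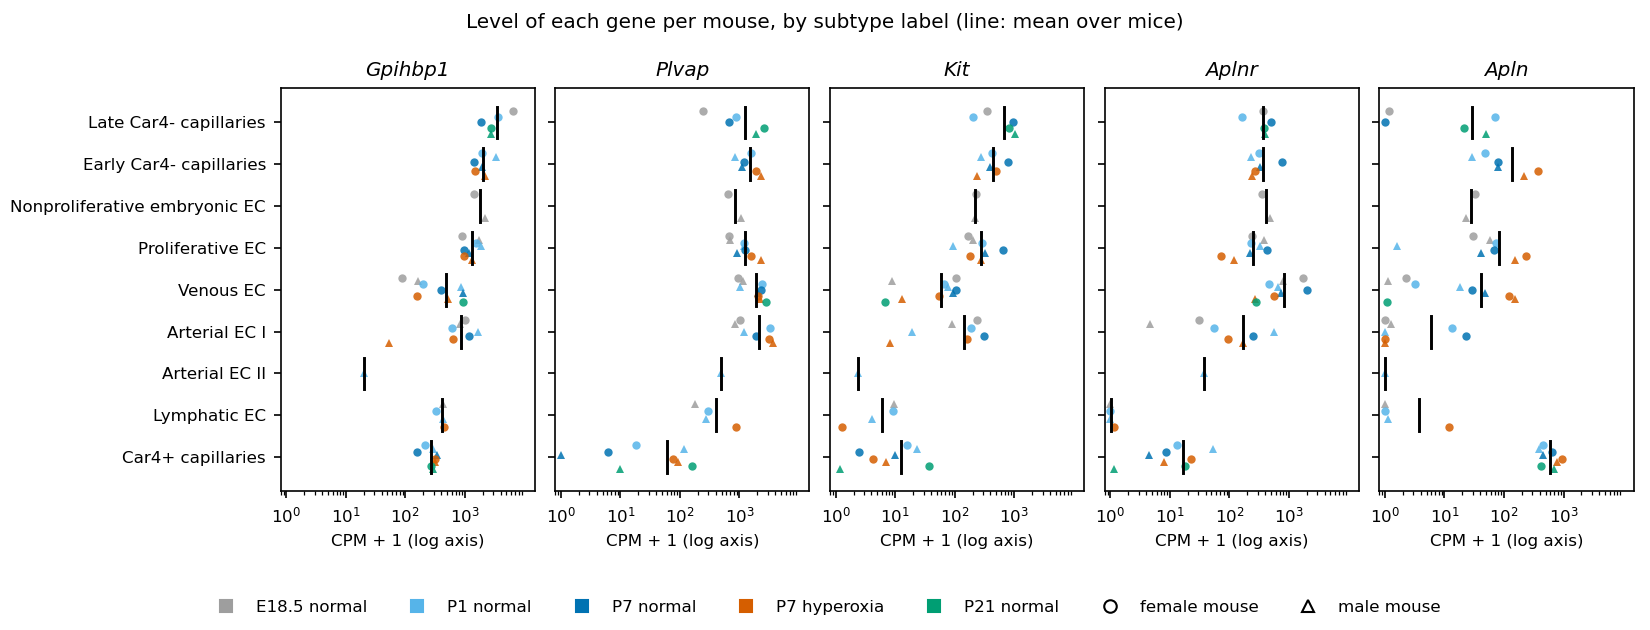
Level of each gene (CPM + 1, log axis) in each mouse with at least 8 cells of a label, coloured by group, with circles for female and triangles for male mice and a black line at the mean over mice. Car4+ capillaries sit at the right for Apln, with a mean of 593 CPM, and at the left for Plvap, Kit and Aplnr, with means of 59.4, 11.7 and 15.4 CPM.

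The same division was described within each mouse, where both capillary types came from the same lung. The subtype names may rest on these same genes, so a split between the labels is no independent support for it. Over the 8 postnatal mice, the log2 ratio of Car4- to Car4+ level (log2 of CPM + 1) was 3.02 ± 0.458 (SD) for Gpihbp1, 5.95 ± 2.39 for Plvap, 6.00 ± 2.13 for Kit and 5.07 ± 1.94 for Aplnr, and each of the 4 was higher in Car4- cells in 8 of 8 mice. Apln had a ratio of -3.00 ± 1.01 and was higher in Car4- cells in 0 of 8 mice. The Apln ratio was nearest to 0 in the hyperoxia mice, at -1.34 in the female and -1.86 in the male, against -3.20 and -2.56 in the female and male P7 mice in normal air.

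In Car4- capillaries of mice in normal air, the members did not move together with age. Gpihbp1 read 2098 and 3278 CPM in the female and male at P1, 1481 and 1956 CPM at P7, and 2768 and 2726 CPM at P21. The P7 pair was below both other pairs without overlap. Plvap read 1526 and 820.5 CPM at P1, 1128 and 1116 CPM at P7, and 2551 and 1913 CPM at P21, so that both P21 mice were above all the others. Kit read 414.7 and 272.6 CPM at P1, 795.7 and 382.6 CPM at P7, and 816.8 and 1038 CPM at P21. The P21 mice were again the highest, and P1 and P7 overlapped.

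Aplnr in these cells read 303.8 and 232.1 CPM at P1, 744.5 and 326.5 CPM at P7, and 384.8 and 405.2 CPM at P21, with the female P7 mouse well above the rest. Apln stayed low throughout, at 48.0 and 27.5 CPM at P1, 69.1 and 75.9 CPM at P7, and 20.4 and 48.0 CPM at P21. Both P7 mice were above the other 4 in normal air. From P1 to P7, 2 of 5 members were higher without overlap (Aplnr and Apln), as were 21.1% of 14660 genes tested, and 1 of 5 was lower (Gpihbp1), as were 19.1%. From P7 to P21, 3 of 5 were higher without overlap (Gpihbp1, Plvap and Kit; 19.7% of all genes) and 1 of 5 lower (Apln; 21.5%).

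None of these age differences passed edgeR's quasi-likelihood test at an adjusted p of 0.05, adjusted by Benjamini-Hochberg over all genes. For any difference over P1, P7 and P21 the test called 0 of 5 members and 0.348% of 14660 genes, and 2 of 5 members had an unadjusted p under 0.05, as had 14% of genes. These were Plvap (p = 0.0191, edgeR adjusted p = 0.281) and Kit (p = 0.0219, edgeR adjusted p = 0.293). From P7 to P21, when edgeR called 0.266% of genes, Plvap was 1.10 higher on the log2 scale (SE 0.38, edgeR adjusted p = 0.341, higher in 2 of 2 mice), and it was the 1 member of 5 with an unadjusted p under 0.05, against 10.5% of genes. From P1 to P7, when edgeR called 0% of genes, Aplnr was 0.92 higher on the log2 scale (SE 0.41, edgeR adjusted p = 0.435), again the 1 member of 5 with an unadjusted p under 0.05, against 11.3% of genes. Without the female P7 mouse this Aplnr difference was 0.15. DESeq2 and limma also called 0 of 5 members in these 3 comparisons. An exact permutation test of 2 against 2 mice cannot give a two-sided p below 0.333. Sample titles carry a batch code (DC and a number), called run here. The titles do not say what it stands for. In CD31-gate cells the P1 and P7 mice of each sex had separate runs, so that run and age cannot be told apart there.

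The P21 levels of Kit and Apln differed between the sort gates. In the female mouse the gates also differed in run, so that gate and run cannot be told apart there. At P21, 50 Car4- cells of the female and 83 of the male had been sorted through the gate labelled mesench, and these held 1721 and 1460 CPM of Kit, against 636.7 and 749.6 CPM in the cells sorted on CD31 (PECAM1, an endothelial surface protein). In the female, Gpihbp1 read 3077 CPM in CD31-gate and 1414 CPM in mesench-gate cells, and Aplnr 286.5 and 881.1 CPM. In the male, Gpihbp1 read 2707 and 2766 CPM and Aplnr 423.3 and 380.9 CPM. With CD31-gate cells alone, the P7 mice had 809.2 and 387.0 CPM of Kit and overlapped the P21 mice. For Plvap the P21 mice stayed above the P7 mice in CD31-gate cells, at 2638 and 1725 CPM at P21 against 1153 and 1184 CPM at P7. For Apln the direction was lost: in CD31-gate cells it was 24.88 and 79.32 CPM at P21 against 72.29 and 56.65 CPM at P7, with overlap, and the mesench-gate cells held 0 and 3.094 CPM. The CD31-gate cells of the male P7 and P21 mice shared a run, and there Plvap was 1184 CPM at P7 and 1725 CPM at P21. Cells labelled Late Car4- made up 44 of the 206 Car4- cells of the female P7 mouse and 2 of the 116 of the male.

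In Car4+ capillaries Apln overlapped between P21 and each earlier age, at 446.1 and 384.5 CPM at P1, 641.6 and 454.0 CPM at P7, and 410.8 and 683.0 CPM at P21. The P7 pair was above the P1 pair without overlap, the 1 of 5 members higher at P7, as were 12.9% of 12284 genes tested. Its fitted difference was 0.52 on the log2 scale (SE 0.46, edgeR adjusted p = 0.845). Plvap read 17.6 and 117.7 CPM at P1, 5.14 and 0 CPM at P7, and 158.1 and 8.94 CPM at P21. Its log2 change from P1 to P7 was -4.80 (SE 1.74; the adjusted p of edgeR was 0.730), and it was 4.98 higher at P21 than at P7 (SE 1.76, edgeR adjusted p = 0.858). These values rest on very few cells: 99.1% of the Plvap reads of the female P7 mouse came from 1 of 42 cells, and the male P7 mouse had 0 reads in 24 cells. Without the female P21 mouse the later log2 change was 1.92, and without the male P1 mouse the earlier one was -2.58. From P1 to P7, 3 of 5 members were lower without overlap (Plvap, Kit and Aplnr), as were 18.6% of genes, and from P7 to P21 1 of 5 was higher (Plvap), as were 20.9%.

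edgeR called 0 of 5 members in Car4+ capillaries for age, P7 against P1 and P21 against P7, and 0.0163%, 0% and 0.00814% of genes. In each of these 3 comparisons 1 of 5 members, Plvap, had an unadjusted p under 0.05, as had 6.23%, 6.28% and 5.24% of genes. DESeq2 called Plvap from P1 to P7 and from P7 to P21 and limma called 0 of 5. In each of the 15 comparisons made, DESeq2 called between 92 and 869 genes. No member passed the test of a different P7 to P21 change in Car4+ and Car4- cells, which called 0% of 13720 genes, and 0 of 5 had an unadjusted p under 0.05 (3.88% of genes). DESeq2 and limma called 0 of 5 there too.

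**Figure D2:**
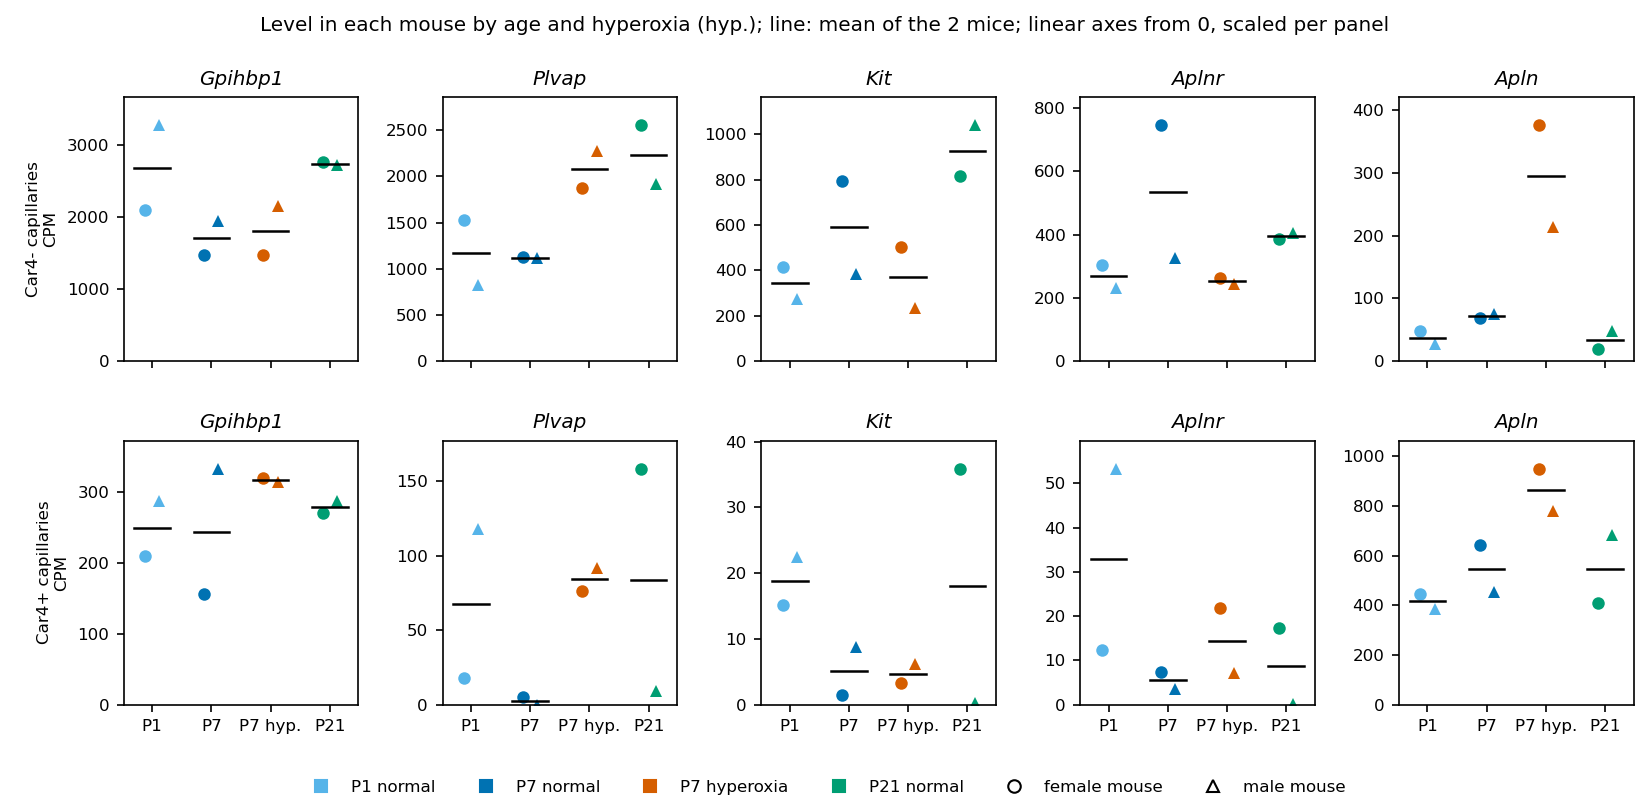
CPM of each gene in each mouse of P1, P7, P7 hyperoxia and P21, in Car4- capillaries (top row) and Car4+ capillaries (bottom row), with a black line at the mean of the 2 mice and a linear axis from 0 of its own in each panel. In the Apln panel of Car4- cells the hyperoxia mice stand at 375.1 and 214.2 CPM, above the 6 mice in normal air, which reach 75.9 CPM.

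At P7, Car4- capillaries had more Apln and less Aplnr in both hyperoxia mice than in either mouse in normal air, although the Aplnr values lay within those of P1. In Car4- capillaries at P7, Apln read 375.1 CPM in the female and 214.2 CPM in the male after hyperoxia, against 69.1 and 75.9 CPM in normal air, a mean of 4.06 times the level. Aplnr in the same cells read 264.2 and 245.1 CPM against 744.5 and 326.5 CPM, a mean 2.10 times lower. Plvap read 1880 and 2272 CPM against 1128 and 1116 CPM, a mean of 1.85 times the level. In these 3 genes the hyperoxia mice did not overlap those in normal air. Kit, at 503.4 and 236.7 CPM against 795.7 and 382.6 CPM, and Gpihbp1, at 1482 and 2155 CPM against 1481 and 1956 CPM, overlapped. Without overlap, 2 of 5 members were higher, as were 18.1% of 14660 genes, and 1 of 5 lower, as were 15.6%.

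These differences did not pass edgeR's test, which called 0 of 5 members and 0.0136% of genes. The log2 change was 1.99 for Apln (SE 0.49, 95% interval 0.93 to 3.05, p = 0.00137, edgeR adjusted p = 0.596, higher in 2 of 2 mice), -1.11 for Aplnr (SE 0.41, edgeR adjusted p = 0.887) and 0.86 for Plvap (SE 0.38, edgeR adjusted p = 0.887). Aplnr rests on the female P7 mouse, without which its log2 change was -0.35. All 3 had an unadjusted p under 0.05, 3 of 5 members against 5.52% of genes. DESeq2 called Apln alone among the members (adjusted p = 0.00995) and 183 genes in all, and limma called 0 of 5. The CD31-gate cells of the male P7 and hyperoxia mice shared a run. Within it and in CD31-gate cells, Apln was 214.2 CPM after hyperoxia and 56.7 CPM in normal air, Aplnr 245.1 and 369.6 CPM, and Plvap 2272 and 1184 CPM. In CD31-gate cells the female mice had separate runs, where run and treatment cannot be told apart.

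A read of Apln was also found in more cells. With every cell thinned to 50000 reads, 56.9% of 153 Car4- cells of the female hyperoxia mouse (95% Clopper-Pearson interval 48.6% to 64.8%) and 39.4% of 132 cells of the male (31% to 48.3%) had a read of Apln. In normal air the shares were 12.6% of 206 cells (8.41% to 17.9%) and 24.8% of 113 cells (17.1% to 33.8%). The intervals cover the counting error over cells of 1 mouse only and leave out variation between mice. Reads without molecular identifiers are also not independent molecules. Unthinned, the shares were 59.5% and 43.9% in hyperoxia and 14.1% and 26.7% in normal air. In lymphatic EC, 1.22% of 82 thinned cells had a read. Within the Early label alone, which left out 44 Late cells of the female P7 mouse, the shares were 57% and 40.5% in hyperoxia and 16% and 25.2% in normal air. Thinning does not make cells equal in detection. In the females, Gpihbp1 at 1481 CPM in normal air and 1482 CPM after hyperoxia had a read in 87.9% and 96.7% of Car4- cells. In the males these Gpihbp1 shares were 100% and 87.9%. The part of detection in the Apln shares was not tested. Summed over Car4, Ednrb, Tbx2 and Fibin, the markers of Car4+ cells read 442.7 and 675.5 CPM in these Car4- cells after hyperoxia and 293.7 and 704.2 CPM in normal air, and the groups overlapped. Of the markers of other cell types in the same Car4- sums, those of mesenchyme, other leukocytes and proliferation overlapped between the 2 P7 groups, mast cell markers were near 0, and the following lists did not overlap. Arterial markers (a list that holds Cxcl12) summed to 547.9 and 743.6 CPM after hyperoxia against 1442 and 1583 CPM. Lymphatic markers summed to 230.0 and 297.4 against 87.37 and 179.1 CPM, epithelial markers to 94.66 and 152.1 against 25.74 and 61.96 CPM, venous markers to 114.3 and 136.4 against 93.18 and 104.0 CPM, and erythroid markers to 5.308 and 4.66 against 0.5858 and 0.7181 CPM. In Car4+ capillaries epithelial markers summed to 169.7 and 239.9 CPM against 18.16 and 37.37 CPM, arterial markers to 36.7 and 8.024 against 0.09609 and 0 CPM, and venous markers to 10.53 and 11.25 against 0.07207 and 3.104 CPM, while those of lymphatic and erythroid cells, mesenchyme, other leukocytes and proliferation overlapped. The markers of Car4+ capillaries themselves summed to 6385 and 8585 CPM there against 8999 and 13500 CPM, and those of general capillaries, a list that holds Plvap, Gpihbp1, Kit and Aplnr, to 1200.0 and 1462 against 729.7 and 843.0 CPM. The part of these markers in the differences of Apln, Aplnr and Plvap was not tested.

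Apln was higher in both hyperoxia mice in the other classes too, by a smaller ratio in Car4+ capillaries. Apln in proliferative EC read 234.6 and 150.2 CPM after hyperoxia against 67.9 and 40.1 CPM, a mean of 3.56 times the level. In venous EC it read 119.8 and 150.5 CPM against 27.9 and 46.5 CPM, a mean of 3.63 times the level. Car4+ capillaries, where Apln is highest, read 948.8 and 777.6 CPM against 641.6 and 454.0 CPM, a mean of 1.58 times the level. In all 4 classes both hyperoxia mice were above both mice in normal air. The classes come from the same mice, so they are not independent observations. The share of all genes above in every class was not counted.

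Aplnr was also below the P7 mice in normal air in proliferative and venous EC. In proliferative EC it read 72.3 and 119.4 CPM after hyperoxia against 423.3 and 219.1 CPM, a mean 3.35 times lower. In venous EC, its main site, it read 556.9 and 273.6 CPM against 2038 and 728.0 CPM, a mean 3.33 times lower, and without the female P7 mouse the fitted log2 change was -0.66. In Car4+ capillaries it was low in every mouse, at 21.8 and 7.12 CPM against 7.495 and 3.49 CPM, with 1 to 3 cells of each mouse holding a read after thinning. Kit did not overlap in proliferative EC, at 177.1 and 271.6 CPM against 653.1 and 326.4 CPM, nor in venous EC, at 54.3 and 12.02 CPM against 104.8 and 93.25 CPM, and was lower after hyperoxia in both.

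Plvap read 1568 and 2268 CPM in proliferative EC after hyperoxia against 1217 and 906.0 CPM in normal air, without overlap, and in venous EC 2081 and 2246 CPM against 2267 and 2045 CPM, with overlap. In Car4+ capillaries it read 75.9 and 92.0 CPM, from 4 of 19 and 8 of 37 thinned cells, against 5.14 and 0 CPM, from 1 of 42 and 0 of 24 cells. A count of 0 in 24 cells allows a share of up to 12.5%. The fitted log2 change was 4.88 (SE 1.75, p = 0.0157, edgeR adjusted p = 0.731). DESeq2 called it, in a setting that called 92 to 869 genes per comparison.

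Members above the P7 mice in normal air without overlap numbered 2 of 5 in Car4+ capillaries (19.8% of 12284 genes), 2 of 5 in proliferative EC (16.6% of 13102 genes) and 1 of 5 in venous EC (17.6% of 12326 genes). Those below numbered 0, 2 and 2 of 5, against 12.4%, 16.4% and 16.5% of genes. edgeR called 0 of 5 members and 0% of genes in each of the 3 classes. Unadjusted p-values under 0.05 were found for 1 of 5 members in each: Plvap in Car4+ capillaries (6.16% of genes), Aplnr in proliferative EC (p = 0.00842, log2 change -1.76, SE 0.55; 2.59% of genes) and Aplnr in venous EC (p = 0.0204, log2 change -1.77, SE 0.67; 2.69% of genes). DESeq2 called 0 of 5 in proliferative and venous EC, and limma 0 of 5 in all 3. The log2 change of Apln was 1.81 (SE 1.28) in proliferative and 1.89 (SE 1.27) in venous EC, intervals that include 0.

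**Figure D3:**
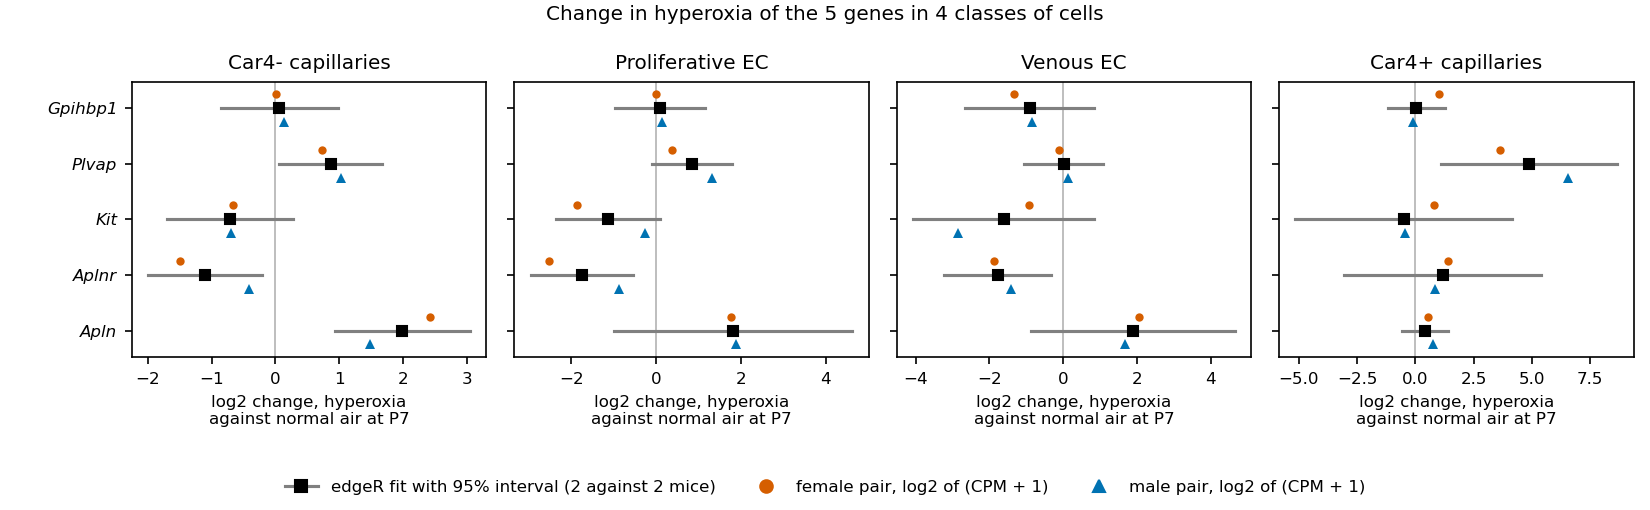
Log2 change after hyperoxia at P7 of each gene in 4 classes of cells, with the edgeR fit as a square, its 95% interval as a line, and the separate female and male pairs as circles and triangles, each panel on its own axis. The female and male points of Apln lie to the right of 0 in all 4 panels, and those of Aplnr to the left of 0 in all panels but that of Car4+ capillaries.

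The difference of the hyperoxia effect between Car4+ and Car4- capillaries was tested with the mouse as a term. It was -1.49 for Apln (SE 0.45, p = 0.0112), 2.06 for Aplnr (SE 0.68, p = 0.0169) and 4.64 for Plvap (SE 1.26, p = 0.00657), each on the log2 scale. edgeR called 0 of 5 members after adjustment (adjusted p = 1 for each of these 3) and 0% of 13240 genes, and 3 of 5 members had an unadjusted p under 0.05 against 3.31% of genes. DESeq2, which called 92 to 869 genes per comparison, called Plvap (1 of 5) and limma 0 of 5. On the Car4+ side, 1 to 3 cells of each mouse had an Aplnr read after thinning, and 0 to 8 cells a Plvap read. In Car4+ capillaries alone the hyperoxia change of Aplnr had an SE of 1.95.

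Ligand and receptor were also scored cell by cell in Car4- capillaries. Of the Car4- cells, 39.9% in the female and 17.4% in the male had a read of both Apln and Aplnr after hyperoxia, against 11.7% and 19.5% in normal air, so that the groups overlapped. Cells with Apln and no Aplnr read made up 17% and 22% after hyperoxia and 0.971% and 5.31% in normal air. At P21 both were read in 3.68% and 5.97% of cells, and at P1 in 10.6% and 6.56%. The product of the separate shares was 38.3% and 16.7% in the hyperoxia mice and 8.64% and 19.3% at P7 in normal air. Unrelated genes would give this product only if all cells of a mouse detected genes equally well. Cells with an Apln read had more genes detected, as given below, so unrelated genes could exceed the product. Of Car4+ cells, 0% to 11.8% of a mouse had reads of both.

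**Figure D4:**
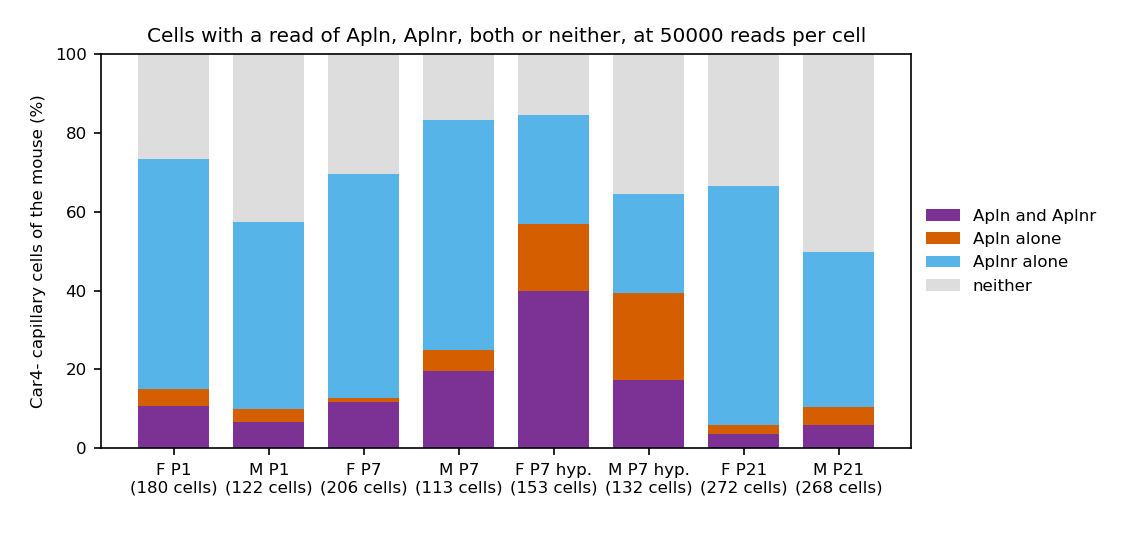
Share of the Car4- capillary cells of each mouse with a read of both Apln and Aplnr, of 1 of them, or of neither, with each cell thinned to 50000 reads and the number of cells under each bar. Apln alone or with Aplnr makes up 56.9% and 39.4% of cells in the hyperoxia mice and at most 24.8% in the 6 mice in normal air.

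Car4- cells with an Apln read were compared with the other Car4- cells of the same P7 mouse, as a description. They were the cells with more genes detected: at 50000 reads their median was 3162.5 genes against 1930.5 in the female P7 mouse, 3994.5 against 3178 in the male, 3342 against 2917.5 in the female hyperoxia mouse and 2459 against 2269 in the male. Read against that, 25% of 14659 genes were found in a larger share of the cells with Apln in all 4 mice, and 6 of 7 genes of a list of Car4+ capillary markers were (Car4, Ednrb, Tbx2, Fibin, Chst1, Emp2). Tbx2, a transcription factor gene, was read in 23.1%, 46.4%, 29.9% and 26.9% of cells with Apln in the female P7, male P7, female hyperoxia and male hyperoxia mice, and in 7.22%, 18.8%, 6.06% and 15% of cells without. Of 9 tested genes on a list of tip cells, the leading cells of vascular sprouts, 2 of 9 were found in a larger share in all 4 mice (Dll4 and Plaur), near the share of all genes. Of 7 other general capillary markers, 1 was (Glp1r). Cxcl12, which encodes a chemokine, was found in a smaller share in all 4 mice, as were 1.43% of genes: 26.9%, 42.9%, 14.9% and 3.85% of cells with Apln against 35.6%, 52.9%, 33.3% and 30% of those without. Among the other members, Aplnr was found in a larger share of the cells with Apln in all 4 mice (1 of 4).

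All 5 members were read before birth. Nonproliferative embryonic EC at E18.5 read 1400 and 2224 CPM of Gpihbp1, 629.4 and 1047 CPM of Plvap, 227.2 and 214.7 CPM of Kit, 356.9 and 477.6 CPM of Aplnr and 31.1 and 22.3 CPM of Apln. Compared with Car4- capillaries at P1, Kit was lower without overlap (1 of 5 members; 16% of 14967 genes) and Aplnr higher (1 of 5; 18.6%). edgeR called 0 of 5 members and 0.494% of genes, 0 of 5 had an unadjusted p under 0.05 (9.42% of genes), and DESeq2 and limma called 0 of 5. Of 7 other general capillary markers edgeR called 2 lower before birth, Sema3c (log2 change -5.09, adjusted p = 0.000915) and Cxcl12 (log2 change -3.32, adjusted p = 0.00224), the latter also on the arterial list. Of 7 other Car4+ capillary markers it called 1 lower, Emp2 (log2 change -5.32, adjusted p = 0.0027), and 0 of either list higher.

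In proliferative EC, Kit read 167.2 and 199.4 CPM at E18.5 and 653.1 and 326.4 CPM at P7 (log2 change 1.37, SE 0.56, edgeR adjusted p = 0.917), and without the female P7 mouse the log2 change was 0.71. Plvap read 666.1 and 703.5 CPM at E18.5 and 1217 and 906.0 CPM at P7. These were the 2 of 5 members higher at P7 without overlap, as were 19.1% of 13102 genes, and 0 of 5 were lower (21.2%). edgeR called 0 of 5 members and 0.0458% of genes, Kit was the 1 of 5 with an unadjusted p under 0.05 (5.25% of genes), and DESeq2 and limma called 0 of 5. In the male mice, which shared a run in CD31-gate cells, Kit was 203.7 CPM at E18.5 and 288.3 CPM at P7 there.

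In venous EC, Gpihbp1 read 88.0 and 162.1 CPM at E18.5 and 199.2 and 873.1 CPM at P1 (log2 change 2.07, SE 0.82, edgeR adjusted p = 0.551). Without the male P1 mouse the log2 change of Gpihbp1 was 0.48, and in thinned cells it was 1.14. Aplnr read 1705 and 809.4 CPM at E18.5 and 468.2 and 669.3 CPM at P1. Apln read 1.27 and 0.112 CPM at E18.5 and 2.19 and 17.5 CPM at P1 (log2 change 3.71, SE 1.40, edgeR adjusted p = 0.548). The E18.5 values of Apln came from 13 and 1 reads, and with cells thinned to 50000 reads the log2 change was -0.15. Without the female E18.5 mouse it was 6.48 (edgeR adjusted p = 0.0318). Without overlap 2 of 5 members were higher (27.4% of 12326 genes) and 1 lower (9.83%). edgeR called 0 of 5 members and 0.0162% of genes, 2 of 5 had an unadjusted p under 0.05 (8.71% of genes), and DESeq2 and limma called 0 of 5.

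Of the genes that work with the 5 members, edgeR called none in Car4- capillaries under hyperoxia: 0 of 11 genes of lipid uptake, 0 of 7 of caveolae, 0 of 12 of KIT signalling and 0 of 11 of apelin signalling. Their median log2 changes were -0.32, -0.025, 0.023 and -0.11, against -0.009 over all genes. Cd36, a fatty acid transporter, read 814.5 and 721.2 CPM after hyperoxia against 1384 and 922.7 CPM (log2 change -0.62, SE 0.40). Scarb1, a lipoprotein receptor, had a log2 change of -0.53, and Fabp4, a fatty acid binding protein, read 0.0105 and 0.0103 CPM against 7.05 and 1.44 CPM. Cav1, the main caveolar coat protein, read 2187 and 887.3 CPM against 3382 and 2077 CPM, Cavin1 had a log2 change of 0.25 and Cav2 of -1.32. Kitl, the ligand of KIT, read 281.2 and 192.3 CPM against 226.9 and 247.4 CPM, with overlap, and the kinase Lyn and the phosphatase Ptpn6 had log2 changes of -0.49 and 1.28, the latter at no more than 4.04 CPM in any of the 4 mice. Of the apelin list, the G protein subunits Gnai2 and Gnai3 had log2 changes of -0.37 and -1.16, and the transcription factor Klf4 of 0.34.

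In Car4+ capillaries 0 of 9, 0 of 7, 0 of 11 and 0 of 10 genes of these lists were called under hyperoxia. With age in Car4- cells, the basement membrane gene Nid2, from the tip cell list, fell by 4.73 on the log2 scale from P7 to P21 (SE 0.68, edgeR adjusted p = 0.0245). Sema3c, a semaphorin and general capillary marker, was called over P1, P7 and P21 (edgeR adjusted p = 0.0398). From P7 to P21, 0 of 7 other general capillary markers were called, and their median log2 change was 0.83 against 0.064 over all genes.

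The genes whose levels most resembled a member were taken from 7245 genes over 50 sums of a mouse and a label, by Pearson's r of log2 CPM. Apln came nearest to Car4 (r = 0.821), Pmp22 (r = 0.813), Tex14 (r = 0.796), Gnao1 (r = 0.791) and C1qtnf2 (r = 0.791). Aplnr came nearest to Vegfc (r = 0.841), the ligand of VEGFR3, then Cd93 (r = 0.786), Jam2 (r = 0.779), Entpd1 (r = 0.759) and Cdc42ep4 (r = 0.756). Plvap came nearest to Cemip2 (r = 0.884), Foxp1 (r = 0.862), Hmcn1 (r = 0.855), Ptprb (r = 0.853) and Itga6 (r = 0.847). Kit came nearest to Plcb1 (r = 0.774), Rgcc (r = 0.753), Glp1r (r = 0.743), Cadm1 (r = 0.723) and Dnah8 (r = 0.718). For Gpihbp1 they were Rgcc (r = 0.719), Kit (r = 0.705), Myo6 (r = 0.656), Rasgrp3 (r = 0.613) and Glp1r (r = 0.612). The order depends on the measure: by Spearman's rho, 2 of these 5 genes were also in the top 5 for Gpihbp1 and Aplnr, 3 for Plvap and Kit, and 4 for Apln. By rho, Itga6 ranked 336 for Plvap (rho = 0.43) and Cd93 ranked 182 for Aplnr (rho = 0.402). Among the members themselves, Kit and Aplnr had r = 0.653, Plvap and Aplnr r = 0.618, and Aplnr and Apln r = -0.0583. The sums share mice, runs and labels, so these are descriptions of the pattern over labels.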

How the data were processed

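Plate-based single-cell libraries were cut with Tn5 and carry no molecular identifiers, per the labels' protocols. The deposited values are whole read counts per gene and cell. The submitters' processing notes name STAR 2.5.2b, HTSeq 0.10 and the build GRCh38, a human build name, so the authors' mouse build and annotation are not settled. Positions come from GENCODE M21 (GRCm38). Whether counting used strand is not given in the sources used here.

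For each mouse, the reads of a class were added up (Car4- joins the Early and Late labels) and scaled to CPM. Sums of at least 8 cells were tested with edgeR 4.0.16 (TMM, filterByExpr, quasi-likelihood test, all groups of a class in 1 fit) and adjusted by Benjamini-Hochberg over all genes, threshold 0.05. With 2 mice per group the p-values rest on a spread pooled over groups. Alternatives used DESeq2 1.42.0, limma 3.58.1, another normalization (RLE), no filter, CD31-gate cells (2694 of 2931), thinned cells, a sex block, the compared groups alone, and each mouse left out. On simulated data for Car4- hyperoxia (14495 genes) edgeR called 55 of 100 genes changed 8-fold, 79 of 100 changed 32-fold and 8 of 14295 unchanged genes; for Car4+ hyperoxia (12059 genes), 27 of 99, 63 of 99 and 2 of 11861.

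For shares of cells with a read, each cell was thinned to 50000 reads, leaving out 11 shallower cells. Nearest genes were the 5 highest by r of log2(CPM + 1) among genes with a mean of at least 20 CPM. The 5 genes and all gene lists were chosen with earlier results of these data known, and the text names the members, the list genes called, or else the 2 of a list with the highest mean CPM and the 1 with the largest change, and the nearest genes. Genes compared between cells with and without Apln were named after their values were seen. Doublets were not called. Reads per mouse summed to between 56564316 and 331392982. Apela, a further ligand of the apelin receptor, was not analysed here.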

Additional observations from a re-analysis of the deposited data

Results flagged for a closer look

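Under hyperoxia at P7, the female and male pairs moved one way in one class and the opposite way in another for 2 members. These differences between classes were not tested, and the share of all genes that did the same was not counted. The hyperoxia and normal-air mice overlapped for Aplnr in Car4+ capillaries and for Gpihbp1 in every class named below. They did not overlap for Aplnr in proliferative and venous EC. Aplnr moved up in both pairs in Car4+ capillaries (log2 changes of 1.43 and 0.85) and down in both in proliferative EC (-2.53 and -0.87) and venous EC (-1.87 and -1.41), a difference of the mean changes of 2.84 and 2.78. Within the shared run and in CD31-gate cells, the male Car4+ pair went the other way, at 7.117 CPM of Aplnr after hyperoxia and 8.404 CPM in normal air. In Car4+ capillaries at most 3 cells of a P7 mouse had an Aplnr read after thinning. Gpihbp1 moved by 0.000973 and 0.14 in Car4- capillaries and by 0.00136 and 0.145 in proliferative EC, against -1.33 and -0.85 in venous EC, a difference of 1.16 in each case. The female changes of Gpihbp1 in Car4- and proliferative cells are close to 0.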

How the results depend on the processing

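edgeR called 0 members in each of 15 comparisons, and 11 of 230 alternative counts were above 0, each at 1. The count was 1 with DESeq2 in Car4- capillaries under hyperoxia (Apln), in Car4+ capillaries from P1 to P7, from P7 to P21 and under hyperoxia (Plvap), and in the difference of the hyperoxia effect (Plvap). It was 1 without a filter in Car4+ capillaries for age, both age steps and hyperoxia (Plvap), 1 with thinned cells in the difference of the hyperoxia effect (Plvap), and 1 without the female E18.5 mouse in venous EC from E18.5 to P1 (Apln, adjusted p = 0.0318; range without 1 mouse 0 to 1). With sex as the replicate block, pairing the female and the male mice of the groups, 0 members were called in 13 comparisons. Where a mouse was left out, the lone mouse of its group is assumed to vary like the others. Over all genes edgeR called 0 to 74 per comparison, DESeq2 92 to 869, limma 0 to 57, the unfiltered fit 1 to 156, thinned cells 0 to 120, and fits without 1 mouse 0 to 666; the cause was not tested.

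Of 334 alternatives to 22 reported log2 changes, 4 changed sign. Plvap in venous EC under hyperoxia (0.014) was -0.053 in CD31-gate cells and from -0.13 to 0.26 without 1 mouse, and Apln in venous EC from E18.5 to P1 (3.71) was -0.15 in thinned cells. Apln under hyperoxia in Car4- capillaries ran from 1.55 to 2.32 over 16 alternatives, with adjusted p from 0.00995 to 1, and Aplnr from -1.62 to -0.35, the latter without the female P7 mouse. The Car4- to Car4+ ratio of Apln was -4.01 with Late cells of the P21 mice alone, and no other alternative moved a ratio by more than 1 SD. The label with the highest mean was the same for 5 of 5 members with CPM averaged over cells and in CD31-gate cells, and for 4 of 5 in normal-air mice alone, a setting chosen after seeing the data, as were the within-run values. Swapping TMM for RLE moved the median of all genes by at most 0.085. With 2 mice per group, even 8-fold changes were often missed in the simulated data. There edgeR called 55 of 100 such genes in Car4- and 27 of 99 in Car4+ capillaries. Those genes were drawn at random from all genes tested, whatever their level, so these rates need not hold for the 5 members.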
